A study of Mus musculus with 2 samples.

Results

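Homeobox genes that pattern the branchial arches were examined in the ear of wild-type fetal mice and of fetal mice null for both Myf5 and Myod1 (double knockout). The set comprised 10 genes, the distal-less genes Dlx1 to Dlx6, the muscle segment homeobox genes Msx1 and Msx2, goosecoid (Gsc) and Barx1, out of 19938 named genes on the array. They were chosen by name, as neural crest patterning genes of the middle and outer ear, with earlier results of these data known. Each was represented by the 1 probe set that the platform annotation pairs with that gene alone. Total RNA of the fetal ear at E18.5, shortly before birth, was hybridized to 1 array of a BALB/c background null for both Myf5 and Myod1 and to 1 wild-type BALB/c array. The transcription factors Myf5 and Myod1 drive cells into the skeletal muscle lineage. The ear compartments included, the dissection and the number of fetuses behind each RNA are not stated in the labels. A single array per genotype allows neither a replicate check nor a p-value, and precision is limited by this number of arrays. In whole-tissue RNA, fewer cells of a type and less RNA per cell cannot be told apart.

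The branchial (pharyngeal) arches are paired swellings of the embryonic head filled largely with neural crest cells. The first and second arches give rise to the jaws, the malleus, incus and stapes of the middle ear, and the external ear. Nested expression of the Dlx genes gives arch cells their position between the upper and lower jaw, with Dlx1 and Dlx2 on throughout and Dlx5 and Dlx6 in the lower part, where endothelin-1 signalling keeps them on. Msx1 and Msx2 are targets of BMP signals, Gsc acts below Dlx5 and Dlx6, and Barx1 marks the crest mesenchyme of the jaws and teeth. Most of this patterning takes place well before E18.5, when bone, cartilage and skin of the ear are differentiating.

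The Dlx genes lie in adjacent pairs in the genome, and Msx1 and Msx2 are unlinked paralogues. For 6 of the 10 genes a RefSeq promoter of assembly GRCm38.p6 was matched by symbol, namely Dlx1, Dlx2, Msx1, Msx2, Gsc and Barx1. The 250 bases before the start of a neighbouring pair, Dlx1 and Dlx2, and of a paralogous pair, Msx1 and Msx2, are shown because the 2 pairs differ in how alike their members read on the arrays. Msx1 and Msx2 both had low signals, so this contrast is uncertain, and a link between sequence and signal was not tested. Capitals mark TAAT or its reverse complement ATTA, the core that homeodomain proteins recognise. Dlx1 is taken from chr2:71529195-71529444 on the plus strand, Dlx2 from chr2:71546755-71547004, Msx1 from chr5:37824586-37824835 and Msx2 from chr13:53472781-53473030, each of these on the minus strand and all printed 5′ to 3′.
Dlx1: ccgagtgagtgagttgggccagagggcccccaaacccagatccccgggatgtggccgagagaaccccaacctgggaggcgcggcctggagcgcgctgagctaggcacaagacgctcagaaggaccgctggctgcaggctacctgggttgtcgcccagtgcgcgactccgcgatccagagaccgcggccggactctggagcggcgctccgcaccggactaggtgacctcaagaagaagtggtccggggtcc
Dlx2: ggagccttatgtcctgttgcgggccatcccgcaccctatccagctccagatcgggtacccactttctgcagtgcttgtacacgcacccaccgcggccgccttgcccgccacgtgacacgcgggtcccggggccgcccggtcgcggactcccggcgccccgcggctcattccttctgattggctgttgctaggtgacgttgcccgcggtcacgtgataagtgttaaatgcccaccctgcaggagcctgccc
Msx1: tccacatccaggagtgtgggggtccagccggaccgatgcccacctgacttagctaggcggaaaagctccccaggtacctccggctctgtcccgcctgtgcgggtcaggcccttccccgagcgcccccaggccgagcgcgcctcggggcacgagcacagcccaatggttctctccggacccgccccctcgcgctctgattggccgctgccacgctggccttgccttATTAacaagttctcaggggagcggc
Msx2: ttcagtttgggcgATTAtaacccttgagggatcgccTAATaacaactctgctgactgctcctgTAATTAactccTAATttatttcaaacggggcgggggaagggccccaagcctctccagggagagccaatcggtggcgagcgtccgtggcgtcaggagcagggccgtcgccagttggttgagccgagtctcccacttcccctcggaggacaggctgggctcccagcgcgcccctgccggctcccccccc

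The Msx2 window held TAATTA once, beginning 187 bases before the start (position -187), and TAAT or ATTA 5 times, counting overlapping matches on either strand. The Msx1 window held the core 1 time and the Dlx1 and Dlx2 windows 0 times. The Gsc window held it 1 time and the Barx1 window 0 times, so 3 of the 6 windows had at least 1 match. Among all 32851 promoter windows of the same length, 54.9% held TAAT or ATTA and 4.84% held TAATTA, a palindrome of which TAAT and ATTA are parts. The Barx1 window was 85.6% G and C, against a median of 52.4% over all windows, and those of Dlx1 and Msx1 were each 68%. A match describes the letters of a window and is not a binding site, and the absence of one says nothing on the factor.

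Expression was read as log2 signal, with a floor at each array's median over all 35557 probe sets, which was 5.70 in the double knockout and 5.65 in the wild type. A difference is the log2 signal of the double knockout minus that of the wild type, so a positive value means a higher signal without Myf5 and Myod1. Of the 10 genes, 9 lay above the floor on both arrays and Dlx4 lay below it on both. Of those 9, 0 were 2-fold or more lower in the double knockout, against 1.71% of the 12458 genes that cleared the floor in either genotype or both, and 0 were 2-fold or more higher, against 0.482%. At 1.5-fold the counts were also 0 lower and 0 higher, against 3.62% and 2.25% of all genes. With shares this small, a count of 0 among 9 genes is near the background. The median difference of the 9 genes was -0.04, beside -0.01 for all genes, and 4 were above 0 and 5 below. The largest difference among them was 1.37-fold.

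**Figure D1:**
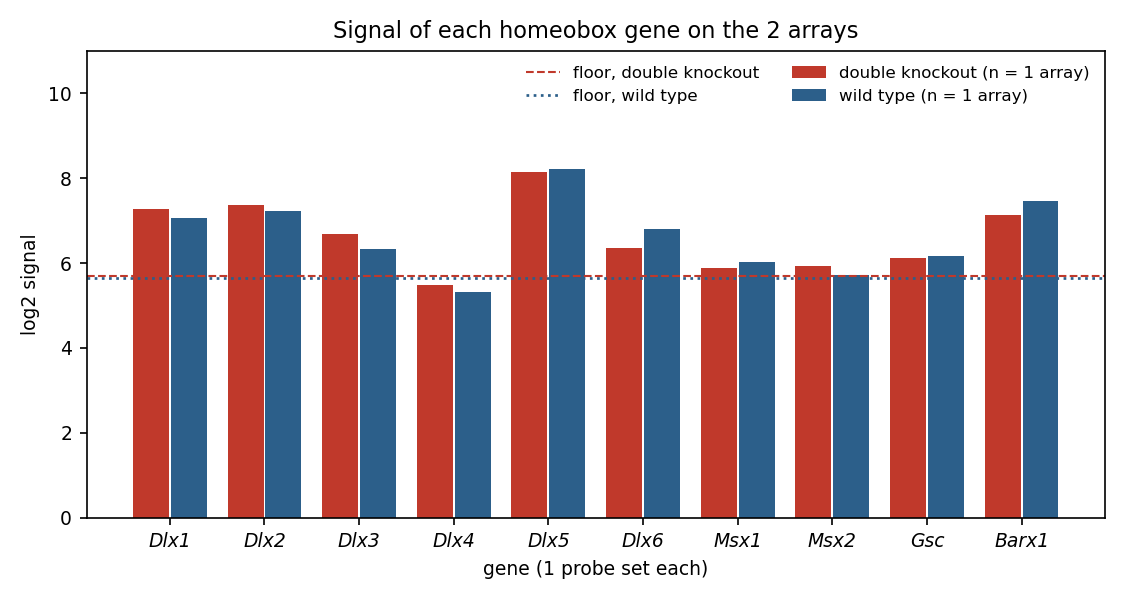
Log2 signal (vertical axis) of the 10 homeobox genes on the double-knockout array (left bar of each pair) and the wild-type array (right bar), 1 array each and so without error bars, with the floor of each array as a horizontal line. The bars of a pair are close for every gene and Dlx4 is below both floors; heights are not comparable between genes, because each gene has its own probes.

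Dlx1 and Dlx2, which act together in the upper part of the first and second arches and are needed for a normal incus and stapes, were both read slightly higher in the double knockout. Dlx1 (probe set 10472809) read 7.27 in the double knockout and 7.06 in the wild type, a difference of 0.21 or 1.16-fold. Dlx2 (probe set 10483626) read 7.37 in the double knockout and 7.23 in the wild type, a difference of 0.14 or 1.11-fold. The differences of this pair lay 0.07 apart. Of all genes above the floor, 15.4% had a difference as high as that of Dlx1 or higher, and 22.7% had one as high as that of Dlx2 or higher.

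Dlx3 and Dlx4 are on latest and lowest in the arches, and Dlx3 is also needed in epidermis, hair follicles and bone. Dlx3 (probe set 10380501) read 6.69 in the double knockout and 6.33 in the wild type, the highest difference of the set at 0.35, or 1.28-fold. A difference this high or higher was found for 6.7% of all genes. Its neighbour Dlx4 (probe set 10390147) read 5.48 in the double knockout and 5.32 in the wild type. Both values are below the floor, so no fold is given for Dlx4.

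Dlx5 and Dlx6 specify the lower jaw, and Dlx5 is also active in the otic capsule, the vestibular epithelium and osteoblasts. Dlx5 (probe set 10543058) read 8.14 in the double knockout and 8.22 in the wild type, a difference of -0.08. Dlx6 (probe set 10536353) read 6.34 in the double knockout and 6.79 in the wild type, the lowest difference of the set at -0.45, or 1.37-fold lower. A difference this low or lower was found for 5.59% of all genes. This neighbouring pair had the same sign but lay 0.37 apart, farther than Dlx1 and Dlx2.

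Msx1 is needed in the mouse for the short process of the malleus and for tooth development, and Msx2 for skull bone and hair. Msx1 (probe set 10529651) read 5.88 in the double knockout and 6.03 in the wild type, a difference of -0.14. Msx2 (probe set 10409314) read 5.93 in the double knockout and 5.71 in the wild type, a difference of 0.22. These paralogues had opposite signs and lay 0.36 apart, but both sat within 0.5 of the floor on each array, where the signal says least.

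Gsc, without which mice lack the tympanic ring and have a defective ear canal, showed nearly equal signals. Gsc (probe set 10402440) read 6.13 in the double knockout and 6.16 in the wild type, a difference of -0.04. Barx1 (probe set 10404982) read 7.13 in the double knockout and 7.47 in the wild type, a difference of -0.34 or 1.26-fold lower. A difference as low as that of Barx1 or lower was found for 8.79% of all genes.

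2 yardsticks bear on these sizes, and neither measures the spread between animals. Within 619 genes that had several probe sets above the floor, the log2 differences of a gene's probe sets varied around their mean with a pooled standard deviation of 0.168. Of the 9 homeobox genes 5 lay farther from 0 than that, namely Dlx1, Dlx3, Dlx6, Msx2 and Barx1. Dlx3, Dlx6 and Barx1 lay beyond 2 such standard deviations, or 0.335. Differences of these sizes were also common among all genes. Of all genes, 15.4% were as high as Dlx1 or higher, 6.7% as high as Dlx3 or higher and 8.79% as low as Barx1 or lower. Passing these cut-offs therefore does not set a gene apart from the background. The other yardstick is the 8283 genes whose mean log2 signal fell in the range of the 9, from 5.82 to 8.18. Their differences had a standard deviation of 0.307, with a 5th percentile of -0.44 and a 95th percentile of 0.43, and 1 of the 9, Dlx6, fell just outside those limits. The middle 50% of these genes ran from -0.15 to 0.13, and 6 of the 9 fell outside it.

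**Figure D2:**
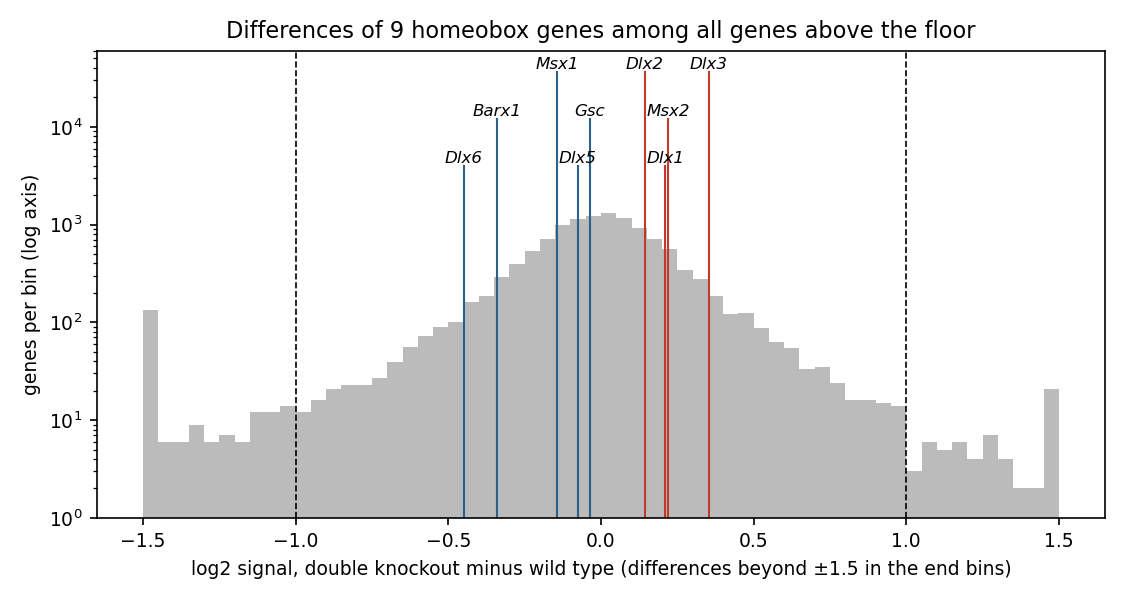
Histogram of log2 differences, double knockout minus wild type (horizontal axis), for the 12458 genes that cleared the floor in either genotype or both, with the number of genes per bin on a log axis and dashed lines at 2-fold. The 9 homeobox genes, as vertical lines, run from -0.45 for Dlx6 to 0.35 for Dlx3 and all lie inside the dashed lines; line heights only separate the names.

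Several of the genes overlap or adjoin other transcripts in the RefSeq annotation. Dlx1as overlaps Dlx1, Dlx6os1 and Dlx6os2 overlap Dlx6, and Msx1os overlaps Msx1, all noncoding RNAs, and the sources used here do not say whether the signals are specific to a strand, so the partners cannot be told apart with certainty. Dlx1as had a probe set of its own and was below the floor on both arrays, at 5.46 in the double knockout and 4.77 in the wild type. Dlx6os1 and Dlx6os2 were not analysed here. The protein-coding genes in the vicinity differed little. Metap1d beside Dlx1 differed by 0.21, which equals the value of Dlx1 to 2 decimals, Sdhaf3 and Sem1 near Dlx5 by -0.13 each, and Itga3 beside Dlx3 by 0.00. Kat7 differed by -0.09, Stx18 by -0.06, Ptpdc1 beside Barx1 by -0.09 and Dicer1 near Gsc by -0.09.

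Genes of the signals that act on these homeobox genes were also read. For every list, genes are counted as within 2-fold after low values were raised to the floor, so a gene at the floor on 1 array may differ by more than its bound. Over all 12458 genes, 1.71% were 2-fold or more lower in the double knockout and 0.482% were 2-fold or more higher. A list with nearly all its genes within 2-fold is therefore near the background. Of 14 genes listed for the endothelin-1 axis 13 were measured, and no endothelin receptor was among the 13. Of the 13 genes, 12 were within 2-fold and 1 was lower, with a median of -0.03. That gene was Mef2c, which relays endothelin-1 signals in the arches and is also a muscle regulator, at 8.45 in the double knockout and 9.49 in the wild type, 2.06-fold lower. The G proteins of the pathway, Gnaq and Gna11, differed by 0.15 and 0.05. The ligand Edn1 differed by 0.06, and Hand1 and Hand2, transcription factors switched on by it, by -0.41 and -0.16. The choice of these 3 was made with their values in view. Edn1 read 5.72 in the double knockout and 5.65 in the wild type, nearly at the floors of 5.70 and 5.65. Its difference therefore says little about the ligand. Hand1 and Hand2, at 5.91 and 6.10 in the double knockout, also lay close to the floor there. All 21 genes around BMP signalling were within 2-fold, with a median of -0.03. Of these, the receptor Bmpr2 differed by -0.11, the signal transducer Smad4 by -0.01 and the BMP target Id2 by 0.32. All 12 measured partners and regulators of Dlx and Msx proteins were within 2-fold, with a median of 0.05. Maged1, which binds Dlx and Msx proteins, differed by 0.06, Pbx3 by 0.20 and Ndn by -0.20.

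Other patterning genes of the arches and the ear were counted beside the shares of all genes, 1.71% 2-fold or more lower and 0.482% 2-fold or more higher. Against shares this small, the counts of the 2 lists here are near the background. Of 28 genes above the floor in the list of arch, middle ear and outer ear patterning, 27 were within 2-fold, 15 were below 0 and 13 above, and the median was -0.03. Tbx15, a T-box gene of the skeleton and skin that also acts in muscle fibres, was 2.12-fold lower in the double knockout. Prrx1 differed by -0.17, Eya1 by 0.04 and Osr1 by -0.48. A further 5 members lay below the floor on both arrays and are not counted. Of 15 neural crest genes above the floor on either array 0 passed 2-fold, with a median of -0.02. Pax7, which marks crest and muscle progenitors, was below the double-knockout floor and so has a bound alone, at 5.50 in the double knockout and 6.38 in the wild type, at least 1.60-fold lower; it was picked with its values in view. Sox9, a regulator of crest and cartilage, differed by 0.33, Zeb2 by 0.16 and the neurotrophin receptor Ngfr by -0.53.

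**Figure D3:**
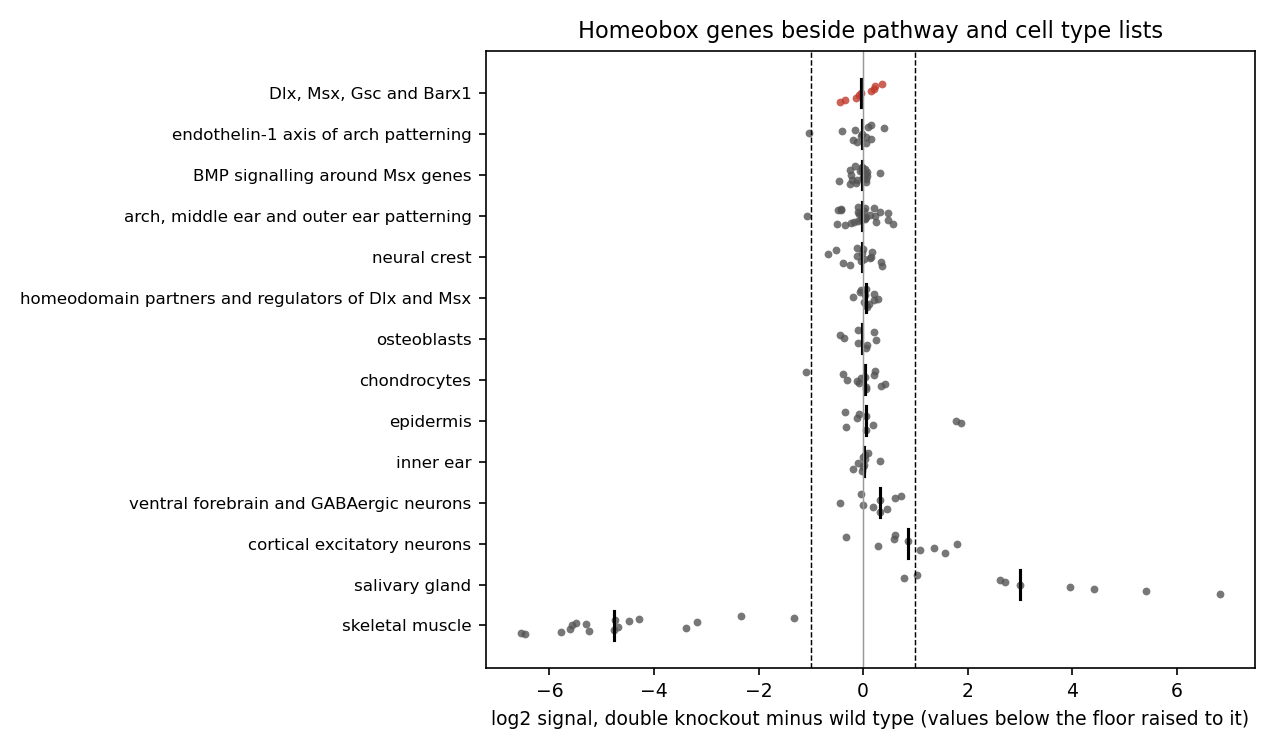
Log2 difference, double knockout minus wild type (horizontal axis), of each gene (point) in the homeobox set, in red, and in 13 lists of pathway and cell type genes, in grey, with a vertical bar at each median and dashed lines at 2-fold. The homeobox set and the patterning lists sit around 0, whereas the skeletal muscle list lies far to the left and the salivary gland and cortical neuron lists to the right; points at the floor on 1 array are bounds.

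The genotype and the make-up of the tissue were read from marker genes. Myod1 read 6.38 in the double knockout and 6.95 in the wild type, above the floor on both arrays and 1.49-fold lower in the array labelled null for it. Myf5 read 5.25 in the double knockout, below the floor, and 5.94 in the wild type. The sources used here do not place either probe set inside or outside the deleted part of its gene, so the Myod1 signal neither checks the label nor settles whether it goes against it. The related regulators Myog and Myf6 were at least 2.51-fold and 5.05-fold lower in the double knockout. All 17 skeletal muscle genes were 2-fold or more lower in the double knockout, against 1.71% of all genes. Their summed linear signal was 704 in the double knockout and 35099 in the wild type. The 3 most abundant members of this list were Acta1, Actc1 and Myl1, which were 88.3-fold, 93.2-fold and 48.5-fold lower. All 10 inner ear genes above the floor were within 2-fold, which is near the background of all genes. Of these, the otoconial protein Oc90 differed by -0.02, Tecta of the tectorial membrane by 0.02 and Coch, which encodes cochlin, by 0.32. Of 9 salivary gland genes 8 were 2-fold or more higher in the double knockout, against 0.482% of all genes. Their summed linear signal was 11261 in the double knockout and 431 in the wild type. The bounds were at least 113-fold for Bpifa2, 42.2-fold for Smgc and 21.4-fold for Prol1. Of 9 cortical neuron genes 4 were 2-fold or more higher, against the same 0.482%, with a summed signal of 1315 in the double knockout and 676 in the wild type. These lists were chosen with earlier results of these data known. Fezf2 was 3.49-fold higher and Neurod2 2.12-fold higher, and Slc17a6 differed by -0.33. The part of these tissues in the differences of the homeobox genes was not tested.

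Several of the homeobox genes are also active outside the arches, and markers of those cells were read beside them. Dlx1, Dlx2, Dlx5 and Dlx6 are expressed in GABAergic neurons of the ventral forebrain. Of 15 genes of that list 9 lay above the floor, all within 2-fold, with a median of 0.31 and 6 above 0. The summed signal of all 15, those below the floor included, was 3013 in the double knockout and 2590 in the wild type. Its abundant members Ebf1, Meis2 and Foxp2, none of them limited to forebrain, differed by -0.01, 0.31 and 0.19. The defining markers Gad2, Slc32a1, Gsx1, Gsx2, Sp8 and Nkx2-1 were at or below the floor on both arrays, and Gad1 read 6.42 in the double knockout and 6.09 in the wild type. The neuropeptide genes Sst and Npy, which neurons outside the forebrain also express, differed by 0.72 and 0.60, Sp9 was at the floor in the wild type and at least 1.37-fold higher in the double knockout, Isl1 differed by -0.44 and Calb2 by -0.03. Gad1 and these 5 were picked with their values in view. The part of such neurons in the differences of Dlx1 and Dlx2 was not tested.

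Dlx3 and Msx2 are expressed in skin and its appendages. Of 9 epidermal genes above the floor 7 were within 2-fold, with a median of 0.05. The summed signal of all 11 with a probe set, those below the floor included, was 2222 in the double knockout and 1979 in the wild type. The keratins of differentiated epidermis stood apart from the rest of that list. Krt1 was at least 3.67-fold higher in the double knockout, and Krt10, a further member picked with its values in view, at least 3.43-fold, whereas the basal keratins Krt5 and Krt15 differed by 0.05 and 0.18. Picked likewise, the basal keratin Krt14 differed by -0.33, and the late differentiation genes Lor and Ivl were below the floor on both arrays. Perp, a desmosomal protein, differed by 0.05. Of 10 hair follicle genes, Lef1 and Krt34 were above the floor, with differences of 0.25 and 0.05, and the other 8 were below it on both arrays. The summed signal of all 10 was 499 in the double knockout and 440 in the wild type. The part of skin in the differences of Dlx3 and Msx2 was not tested.

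Dlx5, Dlx6 and Msx2 are expressed in bone-forming cells and Msx1 and Barx1 in tooth mesenchyme. All 8 osteoblast genes measured were within 2-fold, with a median of -0.03, and the summed signal was 12075 in the double knockout and 12485 in the wild type. Sparc and Col1a1, matrix proteins of bone and other connective tissue, each differed by -0.10, and Ibsp, bone sialoprotein, by 0.24. Of 13 cartilage genes above the floor 12 were within 2-fold, with a median of 0.03. Col2a1, Acan and Cnmd differed by 0.05, 0.05 and 0.21, while in the double knockout the hypertrophic chondrocyte collagen Col10a1 was 2.14-fold lower. Of 9 tooth genes 8 were below the floor on both arrays, the enamel and dentin genes Ambn, Amelx, Enam and Dspp among them. Pax9, which acts with Msx1 in tooth mesenchyme and is also found in other arch tissue, read 6.55 in the double knockout and 6.98 in the wild type, a difference of -0.43. The part of tooth and bone tissue in the differences of the homeobox genes was not tested.

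The differences were recomputed under 9 other ways of scaling, flooring and summarising the probe sets. Each of Dlx1, Dlx2, Dlx3 and Msx2 stayed above 0 and each of Dlx5, Dlx6, Msx1 and Barx1 below 0 under every one of these alternatives that left the gene above the floor on either array. Dlx3 ranged from 0.25 to 0.38 and Dlx6 from -0.47 to -0.27. Barx1 ranged from -0.34 to -0.12. Gsc had 1 positive value, 0.00, and 7 negative ones. Several of these alternatives leave the value of a gene above the reported floor unchanged by construction, so a stable sign is partly built in. A stable sign across ways of processing the same 2 arrays carries no information on the spread between animals.

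**Figure D4:**
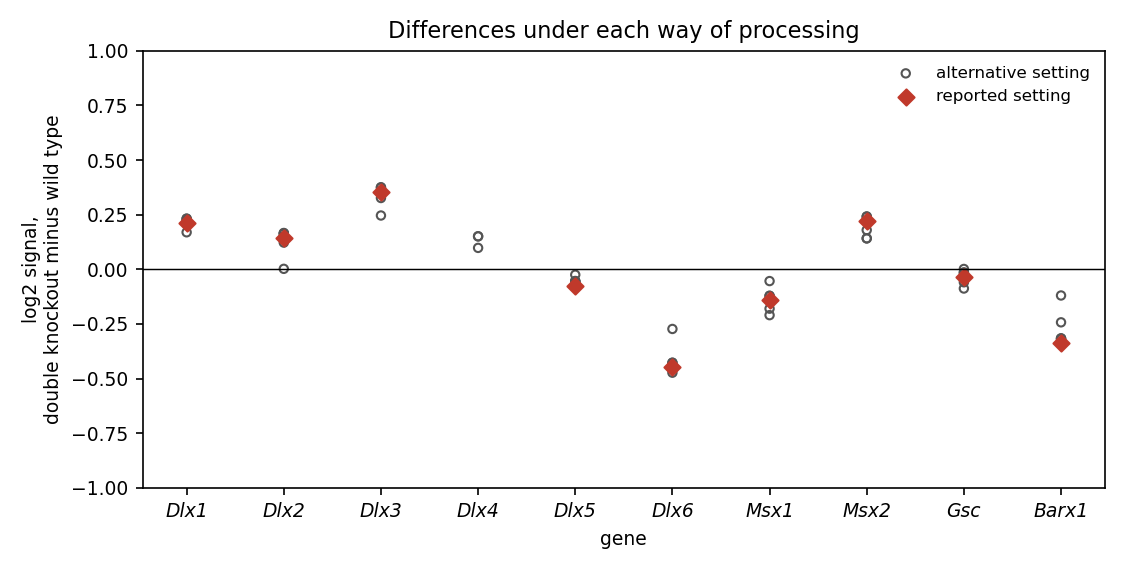
Log2 difference, double knockout minus wild type (vertical axis), of each homeobox gene under the reported setting (red diamond) and under each alternative that left it above the floor on either array (open circles). Dlx3 has the highest and Dlx6 the lowest reported value, all points lie well inside 1 unit (2-fold), and Dlx4 has points for alternatives alone because it was below the floor as reported.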

How the data were processed

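Total RNA was extracted with Trizol and labelled with biotin from 6 µg, per the labels' protocols. The deposited table holds log2 values, covering 35557 probe sets on each array; MAS5 is the tool in the submitters' processing notes, without a version. These probe sets belong to a whole-transcript design, which lacks the mismatch probes that MAS5 uses, so how the signals were made is not settled, and with it what the floor means as a limit of detection. The base of the logarithm was read from the range, 0.75 to 13.26 in the double knockout and 0.81 to 13.27 in the wild type. Which background correction, between-array normalization and genome build the authors used was not given in the sources used here.

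Gene names came from the platform annotation, which can be old, updated through Entrez identifiers in a RefSeq table of GRCm38.p6 (21789 probe sets with 1 gene). Each gene took its probe set of highest mean linear signal; values below each array's 50th percentile were raised to it, and a fold with 1 side at the floor is written "at least". List medians and counts include such bounds. No test across samples is possible with 1 array per group. Calculations used Python 3.11.15, pandas and statsmodels, and were tested on simulated data. Of each other list, the 3 members of highest signal and the largest 2-fold difference in each direction are named. The homeobox genes and all lists were chosen with earlier results of these data known. Alternatives were 4 scalings, 3 floors, a pseudocount, thresholds of 1.5-fold and 3-fold, and the median over probe sets.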

Additional observations from a re-analysis of the deposited data

How the results depend on the processing

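The median difference of the homeobox genes ran from -0.08 to 0.05 over 9 alternatives, and the median over all genes from -0.02 to 0.05. Counts at 2-fold, 1.5-fold and 3-fold stayed at 0 lower and 0 higher. As the largest reported difference was 1.37-fold, a count of 0 at each of these thresholds was fixed in advance in that setting and adds nothing. Of 75 single-gene values 73 moved by less than the spread of probe sets of 1 gene, but many of the 75 could not move, as described below. The exceptions follow from how the alternatives are built: Barx1 was -0.12 with a 75th percentile floor, which raises its double-knockout value, and Dlx6 was -0.27 with a pseudocount, which shrinks low signals. At the 75th percentile Dlx5 alone cleared the floor on both arrays; Barx1 cleared it in the wild type and Dlx2 in the double knockout, so their values are bounds, and that of Dlx2 was 0.00. Each gene has 1 probe set, so the median over probe sets changed none of them. Leaving out a replicate was not possible with 1 array per group. No paired analysis was possible because each genotype has 1 array and the labels number no replicates. Msx1, Msx2 and Gsc are limited by signals near the floor.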

Other observations

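Close relatives of the homeobox set outside its members were looked up after the values above had been seen. Msx3, known from the dorsal neural tube, read 4.99 in the double knockout and 4.67 in the wild type, below the floor on both arrays. Barx2 read 5.34 in the double knockout and 5.19 in the wild type, also below it. Gsc2, at 5.81 in the double knockout and 5.72 in the wild type, cleared the floor on both by a small margin. Among the arch patterning genes, also named after their values were seen, the LIM homeobox gene Lhx6, known from the first arch and from forebrain interneurons, differed by 0.48, and Pitx1, which acts in the lower jaw, by 0.57. Hoxa2, which gives the second arch its identity, differed by -0.34 and Hoxb2 by -0.49. Hoxa2 and Hoxb2, at 6.18 and 5.88 in the double knockout, and Pitx1, at 5.97 in the wild type, sat within 0.5 of the floor there.

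Of the 35557 deposited probe sets, 1227 held exactly the same value on both arrays. Their median log2 value was 3.60, and 187 of them lay above the floor on both arrays. The homeobox genes were not among them.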
